A study of Sus scrofa with 20 samples.

Results

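WNT proteins are secreted lipid-modified ligands that bind Frizzled receptors (FZD) together with the co-receptors LRP5 and LRP6, and signal either through beta-catenin and TCF/LEF factors or through beta-catenin-independent routes such as planar cell polarity. Dickkopf proteins (DKK) act mainly on LRP5 and LRP6, secreted Frizzled-related proteins (SFRP, FRZB) and WIF1 bind the ligands, and R-spondins (RSPO) raise receptor levels through LGR receptors and the ZNRF3 and RNF43 ubiquitin ligases. In skin these genes are known for their parts in hair follicle formation and cycling, in epidermal renewal, and in the regional identity of dermal fibroblasts, where DKK1 is a classical gene of palm and sole fibroblasts. The 44 genes described here are every row of a pig skin count table whose Ensembl identifier mapped to a WNT, FZD, DKK, SFRP or RSPO gene, or to FRZB, WIF1, LRP5 or LRP6. They are 18 WNT ligands, 12 receptors and co-receptors, 4 DKK genes, 6 genes of the SFRP, FRZB and WIF1 group, and 4 R-spondins, out of 19280 identifiers. The rule reads gene names only.

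Skin punches of 4 mm were taken at 4 sites of 5 wild-type (WT) female Yorkshire pigs, and whole punches were sequenced as stranded mRNA libraries. The sites are volar foot skin (the sole), dorsal foot skin, flank and snout. The pigs were 4, 5, 6, 7 and 8 months old, 1 animal per age, so that age and animal are the same thing here. The labels name no treatment, and no site is a control for another. In bulk punches a lower level can come from fewer cells of a type or from less RNA per cell, and these cannot be told apart.

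The library numbers in the labels form 2 ranges, which divide the pigs into those of 4, 7 and 8 months (the first set, 12 libraries) and those of 5 and 6 months (the second set, 8 libraries). The site labels of the second set went against expression, and sites were therefore taken as labelled in the first set and by expression match in the second. In the second set, libraries labelled flank were read as volar, those labelled volar as snout, those labelled dorsal as flank, and those labelled snout as dorsal. Over 2000 variable genes without the 44 members, each of the 8 libraries lay closest to the site so given. The Pearson r with the first-set site profile was 0.871 and 0.873 for the libraries labelled flank (read as volar), 0.83 and 0.773 for those labelled volar, 0.807 and 0.843 for those labelled dorsal, and 0.86 and 0.82 for those labelled snout. The narrowest margin was in the library labelled dorsal of the pig aged 6 months, with 0.807 to flank and 0.746 to dorsal. Calls of the 20-library fit rest on this reading, so values of the first set alone, where no label was changed, are given beside them. With the deposited labels kept, edgeR's quasi-likelihood test called 0 of 40 members in each of the 6 comparisons, with 1 to 13 members at an unadjusted p under 0.05. No other tool was run with those labels, and no share of all genes is given for them here.

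Library totals ran from 34077821 to 66906420 counts. A single count was worth 0.0131 to 0.0458 CPM (the level unit used here, counts scaled to library size with TMM factors), so 3 counts in 1 library correspond to 0.0394 to 0.137 CPM. Of the 44 members, 40 passed the filter on low counts. WNT1 and WNT8A had no count in any of the 20 libraries, which allows 0.00287 CPM (3 counts over all libraries). WNT8B had 5 counts in all and RSPO2 had 37, and both failed the filter. Reads carried no molecular identifiers, so such floors cover counting error only. Levels are not compared between genes, because gene lengths were not given in the sources used here.

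Site differences were common among the members, and the sole was the site with the lowest level most often. Of the 40 members tested, 31 (77.5%) differed between sites in the 20-library fit, beside 60.3% of all genes tested, at an adjusted p under 0.05 by edgeR's quasi-likelihood test. In the first set alone 17 members (42.5%) did so, beside 30.4% of all genes. By site means, volar skin was lowest for 22 of the 40 members, flank for 9, dorsal foot for 5 and snout for 4. Among all 15275 genes tested, volar was lowest for 40%, flank for 23.3%, dorsal foot for 17.2% and snout for 19.4%. Flank and dorsal foot were each highest for 11 members, and volar and snout for 9 each, where volar was highest for 36.1% of all genes, flank for 28.6%, snout for 19.3% and dorsal foot for 16%.

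**Figure D1:**
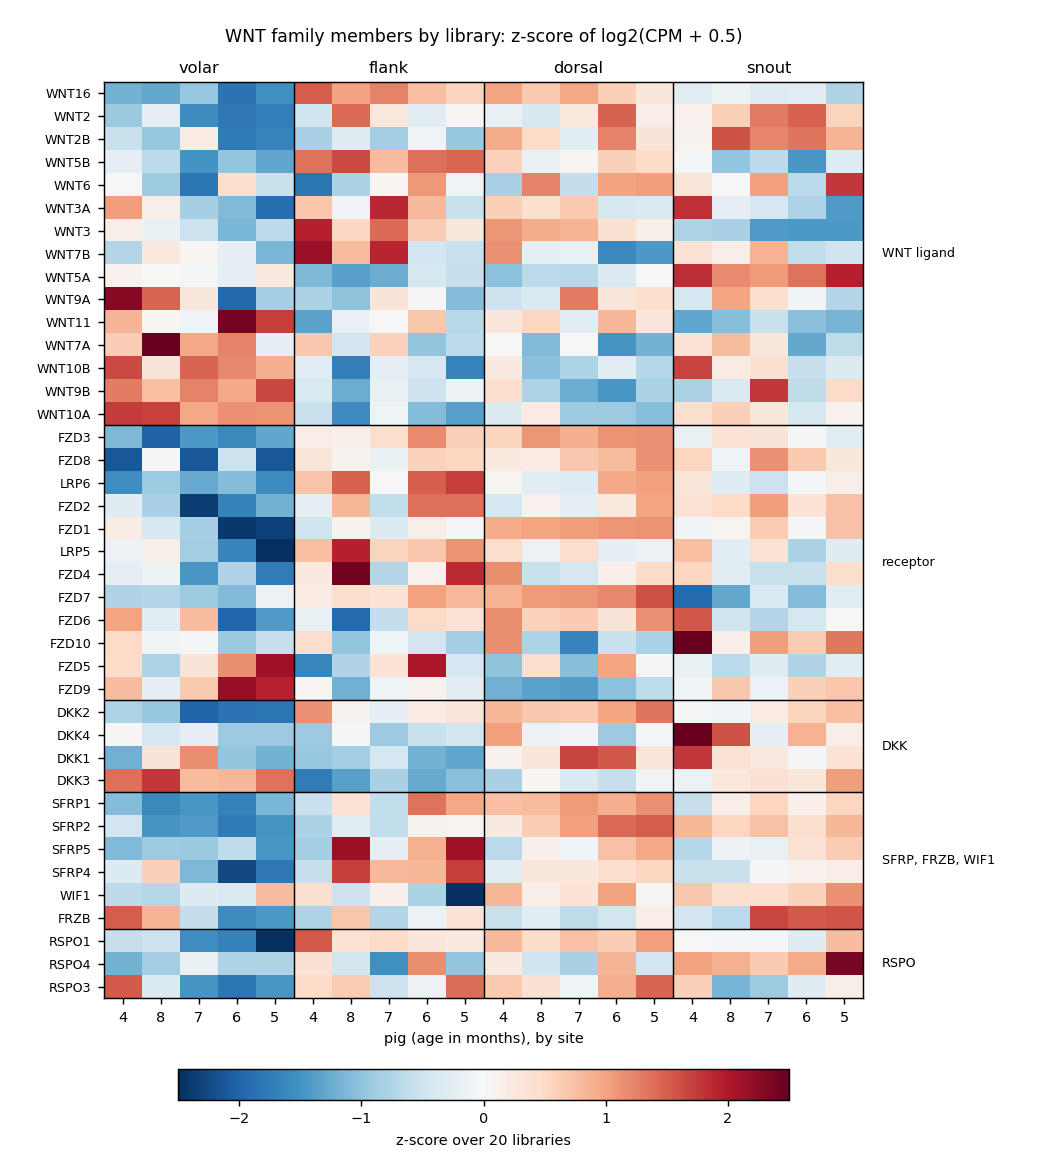
Level of the 40 tested members (rows, grouped by role) in the 20 libraries (columns, grouped by matched site and named by pig age in months, with ages 5 and 6 the second set), as log2(CPM + 0.5) centred and scaled within each gene. WNT16, FZD3, DKK2 and SFRP2 are below their means in the 5 volar columns, whereas DKK3 and WNT10A are above theirs.

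Between sole and flank, 26 members differed, 8 higher and 18 lower in the sole, where 55% of all genes differed (25.8% higher and 29.1% lower). In the first set 16 members differed, 4 higher and 12 lower, where 32.9% of all genes did (16.9% higher and 16% lower). The median difference over the 40 members was -0.57 on the log2 scale, beside -0.045 over all genes. The 8 higher members were 6 ligands (WNT5A, WNT7A, WNT9B, WNT10A, WNT10B and WNT11), FZD9 and DKK3. All 4 of the SFRP, FRZB and WIF1 group that passed (SFRP1, SFRP2, SFRP4 and SFRP5) were lower in the sole, as were 7 of the 8 receptors that passed. 18 of the 26 calls held under all 36 alternative settings that used the matched sites, and 15 of those were also called in the first set alone. The 8 others (FZD1, FZD4, FZD9, SFRP2, SFRP4, WNT2, WNT7A and WNT7B) lost the call in at least 1 setting, with highest adjusted p from 0.0564 to 0.287. FZD1 was 1 of these with the pig as a block (log2 -0.57 ± 0.26, adjusted p = 0.0696), and FZD8 passed with the block (log2 -2.41 ± 0.96, adjusted p = 0.0421).

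Between sole and dorsal foot, the 2 surfaces of the same foot, 24 members differed, 7 higher and 17 lower in the sole. Among all genes 48.9% differed (24.7% higher, 24.2% lower). The first set called 14 members (4 higher, 10 lower), beside 24.1% of all genes (14% higher, 10.1% lower). The median over members was -0.72 (log2), beside -0.032 over all genes. The higher members were WNT5A, WNT7A, WNT9B, WNT10A, WNT10B, FZD9 and DKK3. 18 calls held wherever tested under the 36 settings and 12 of those also in the first set. FZD9 was among these 12 and was not tested in all 36. FZD2, FZD8, LRP5, SFRP5, WNT2 and WNT5A each lost the call in at least 1 setting (highest adjusted p 0.0678 to 0.122), and RSPO3 passed with the pig as a block (log2 -1.08 ± 0.42, adjusted p = 0.0407).

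Between sole and snout 22 members differed, 5 higher (WNT3, WNT7A, WNT10A, WNT11 and DKK3) and 17 lower in the sole, beside 39.7% of all genes (19% higher, 20.7% lower). In the first set 7 members passed (1 higher, 6 lower), beside 11.6% of all genes (5.71% higher, 5.85% lower). The median over members was -0.55 (log2), beside -0.026 over all genes. 10 calls held in all 36 settings, namely those of WNT5A, WNT11, WNT16, FZD2, FZD3, LRP6, DKK2, DKK3, SFRP1 and SFRP2. Without the 3 snout libraries that held skeletal muscle RNA, 11 members passed in place of 22. No share of all genes is given for that count, so whether the fall was particular to the members was not tested. That setting, here and below, left only the snout libraries of the pigs aged 4 and 8 months, both of the first set. In it, the loss of muscle RNA and the smaller number of libraries cannot be told apart. LRP5 was lost with the pig as a block (log2 -0.38 ± 0.15, adjusted p = 0.0542).

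Snout differed from flank in 16 members, 8 in each direction, beside 28.9% of all genes (15.7% higher, 13.2% lower), and from dorsal foot in 11 (5 higher, 6 lower), beside 22.2% (13.4% higher, 8.77% lower). The first set called 8 and 5 of these, beside 13.2% and 7.92% of all genes. 6 snout against flank calls (WNT3, WNT5A, WNT5B, WNT16, FZD7 and DKK3) and 5 snout against dorsal calls (WNT3, WNT5A, WNT16, FZD7 and FZD9) held in the first set and under every one of the 36 settings that tested them. FZD9 was not tested in all 36. Without the 2 flank libraries with most adipocyte RNA 10 members differed between snout and flank. Without the 3 muscle-bearing snout libraries 6 did, and snout against dorsal fell from 11 members to 5. With the pig as a block, SFRP4 (adjusted p = 0.0681) and SFRP5 (0.0585) were lost for snout against flank, RSPO4 (0.0398) and WNT10B (0.00974) were gained, and WNT10A (0.0532) was lost for snout against dorsal. Dorsal foot and flank, the 2 haired sites, differed in 2 members, DKK1 and SFRP2, both higher in dorsal foot, beside 1.42% of all genes (0.57% higher). Neither call held under all settings. The first set called 0 members, beside 0.131% of all genes called. At an unadjusted p under 0.05 there were 13 members, a count given without a share of all genes. DKK3 was added by the pig block (log2 0.55 ± 0.13, adjusted p = 0.0365).

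**Figure D2:**
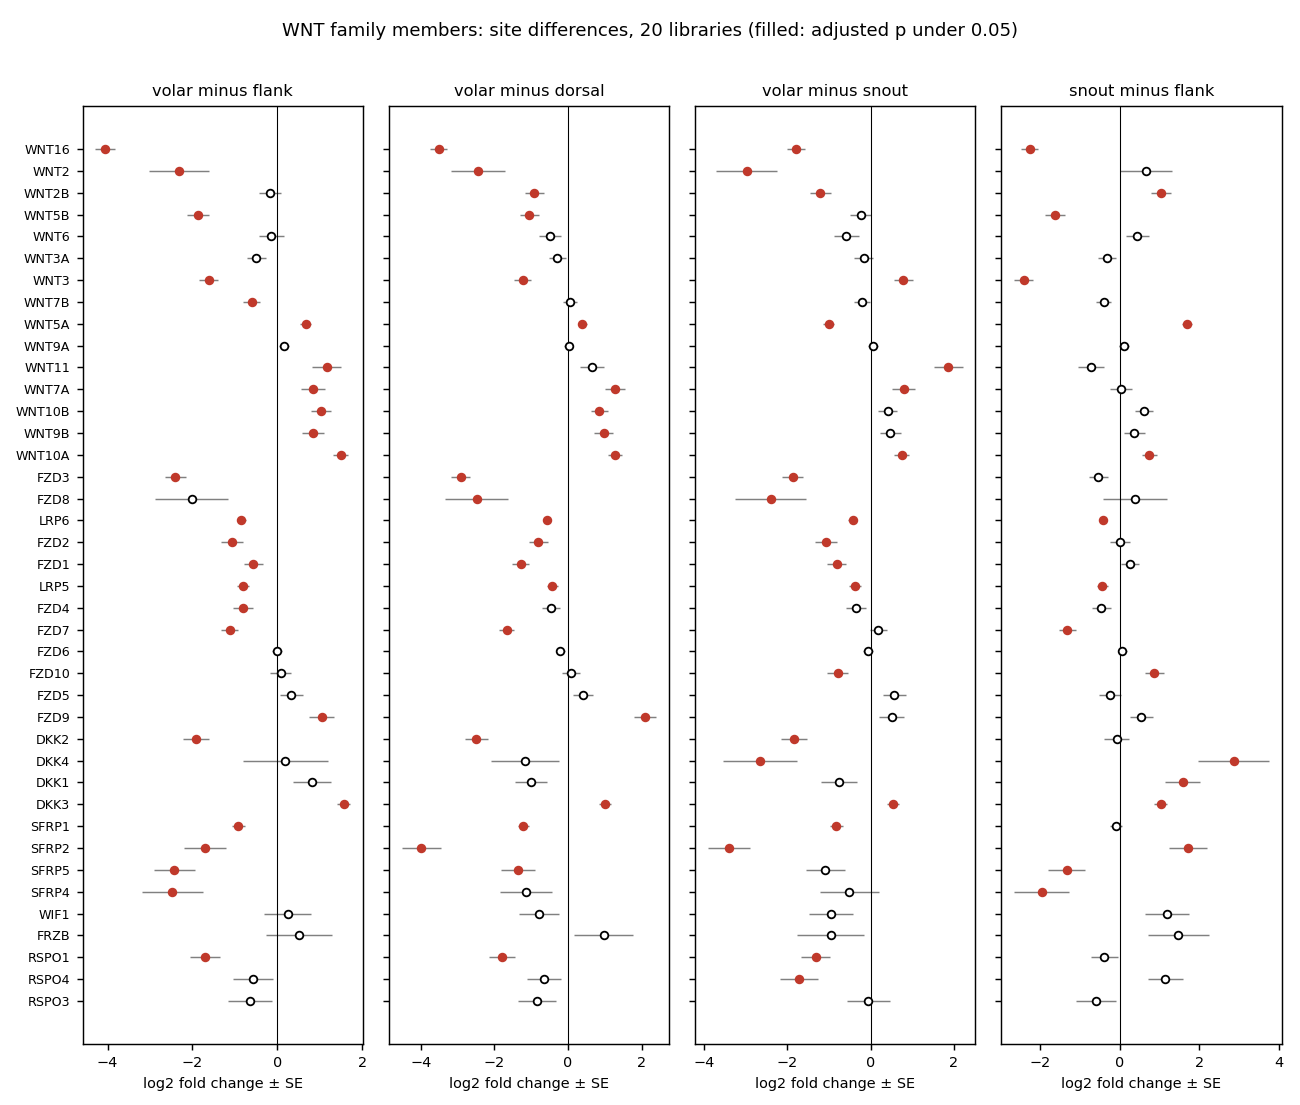
Log2 difference (point) with its standard error (bar) of the 40 tested members for volar minus flank, volar minus dorsal, volar minus snout and snout minus flank in the 20-library fit, with members that passed marked. Points left of 0 outnumber those right of 0 in the 3 volar panels (18, 17 and 17 called lower against 8, 7 and 5 higher), while snout minus flank has 8 calls on each side.

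Summed markers of several cell types moved with these comparisons. Summed levels of 9 fibroblast markers were 6269 to 37720 CPM in the 5 volar libraries, 101800 to 230300 in flank, 28630 to 82460 in dorsal foot and 22200 to 50860 in snout, with no marker at 0 in any library. The 8 differentiating keratinocyte markers summed to 245900 to 577800 CPM in volar and to 11560 to 27780 at the other sites, again with none at 0. Among 12 hair shaft and inner root sheath markers found, 2 to 5 were at 0 in volar libraries, where their sum was 10.4 to 45.4 CPM, beside 353.9 to 17240 at the other sites. The 6 dermal papilla markers found, of which RSPO3 is one, summed to 6.35 to 12.3 CPM in volar and 10.3 to 28.0 elsewhere. 6 sweat gland markers summed to 510.5 to 5389 CPM in volar, beside 43.1 to 218 at the other sites. Of these 6, 1 to 2 were at 0 in each volar library and up to 1 elsewhere, so not all of them rose with the sum. Smooth muscle markers (5) summed to 42.0 to 317 CPM in volar, 493 to 1586 in flank, 446 to 712 in dorsal foot and 110 to 845 in snout, with up to 1 at 0 in volar. The 3 nerve and Schwann markers found summed to 34.1 to 93.4 CPM in snout, where members such as WNT5A were high, beside 0.596 to 16.1 at the other sites, with up to 1 at 0 in volar. The part of these differences in the results for the members was not tested.

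Among the ligands, WNT16, a ligand known in skin from hair follicle and interfollicular keratinocytes, differed most between sites. Values are listed throughout by pig age in the order 4, 7, 8, 5 and 6 months, and the last 2 come from the second set. In volar skin WNT16 measured 3.34, 4.50, 2.99, 2.13 and 1.33 CPM, and in snout 10.2, 9.52, 12.2, 5.80 and 10.1. In flank it measured 77.6, 57.7, 43.8, 26.4 and 33.2 CPM, and in dorsal foot 42.6, 41.6, 29.5, 19.1 and 27.7. Every volar library was below every snout library, and every snout library was below all 10 libraries of the haired sites. The volar minus flank difference was -4.05 ± 0.23 (log2, SE, adjusted p = 7.96e-10), the volar minus dorsal difference -3.52 ± 0.23 (adjusted p = 4.4e-09) and the volar minus snout difference -1.80 ± 0.22 (adjusted p = 7.82e-06). Volar minus flank was -4.05 ± 0.26 in the first set (adjusted p = 7.91e-06) and -4.10 ± 0.40 in the second (adjusted p = 0.000353). Flank and dorsal foot overlapped in WNT16 and did not pass the test (adjusted p = 0.223).

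WNT3, a beta-catenin-type ligand of the hair follicle, also separated the haired sites from the other pair, with snout lowest. Flank libraries held 128, 86.5, 44.3, 36.9 and 48.2 CPM and dorsal foot libraries 68.5, 56.7, 60.2, 33.2 and 39.6. Snout libraries held 16.4, 10.0, 16.1, 9.93 and 9.90 CPM and volar libraries 33.0, 19.8, 26.3, 18.2 and 12.4. All snout and all volar values lay below all flank and dorsal values, whereas snout and volar overlapped. Snout minus flank was -2.40 ± 0.24 (log2, adjusted p = 9.88e-07), with -2.60 ± 0.36 in the first set and -2.11 ± 0.23 in the second (adjusted p = 0.00118 and 0.0024). Volar minus flank was -1.62 ± 0.23 (adjusted p = 1.44e-05). The higher level in volar than in snout (log2 0.78 ± 0.23, adjusted p = 0.0111) was lost without the pig aged 5 months (adjusted p = 0.0528) and without the muscle-bearing snout libraries (0.147).

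WNT5A, the main ligand of the beta-catenin-independent routes, had its highest level in the snout. It measured 54.6, 37.5, 39.8, 57.0 and 43.3 CPM there and 23.7, 22.2, 22.8, 25.6 and 20.1 in volar skin. In flank the values were 13.2, 12.5, 11.7, 17.2 and 18.3 CPM and in dorsal foot 13.9, 16.3, 16.5, 22.9 and 19.1. The 5 snout libraries lay above all 15 others, and the volar libraries lay above all flank libraries but overlapped with dorsal foot. WNT5A rose in snout over flank by 1.69 ± 0.13 (log2, adjusted p = 5.57e-08) and over dorsal foot by 1.40 ± 0.13 (adjusted p = 7.37e-07). Snout minus flank was 1.82 ± 0.15 in the first set and 1.49 ± 0.20 in the second (adjusted p = 5.78e-05 and 0.00518). The smaller volar minus flank difference (0.68 ± 0.13, adjusted p = 0.000253) passed in the first set (adjusted p = 0.00143) and was 0.35 ± 0.20 in the second (adjusted p = 0.182). The volar minus dorsal difference of 0.39 (adjusted p = 0.0176) lost its call in 6 settings, with an adjusted p of 0.103 under upper-quartile scaling and 0.0701 without the pig aged 7 months. WNT5B, the close paralogue, did not follow it. Its site means were 8.16 ± 1.37 CPM in flank, 4.64 ± 0.895 in dorsal foot, 2.64 ± 0.872 in snout and 2.24 ± 0.730 in volar (SD, n = 5), and it was lower in snout than in flank by -1.62 ± 0.25 (adjusted p = 0.000125, or 0.017 in the first set).

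WNT10A, a ligand known for its role in hair, tooth, sweat gland and sole epidermis, was highest in the sole. The volar libraries measured 10.2, 7.23, 10.1, 7.76 and 7.79 CPM and the snout libraries 5.57, 5.31, 6.12, 4.86 and 3.85. Flank measured 3.59, 4.44, 2.16, 2.41 and 2.77 CPM and dorsal foot 3.97, 3.06, 5.10, 2.80 and 3.04. Each volar value was above all 15 others. The volar minus flank difference was 1.5 ± 0.18 (log2, adjusted p = 2.73e-06), and it was 1.43 ± 0.28 in the first set and 1.58 ± 0.23 in the second (adjusted p = 0.00349 and 0.00173). Over snout, the volar level was higher by 0.75 ± 0.18 (adjusted p = 0.00303), a call lost without the 3 muscle-bearing libraries (0.097) and absent in the first set alone (adjusted p = 0.14).

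Most of the other ligands are given by site means. WNT10B (volar 6.91 ± 1.22, flank 3.40 ± 0.933 CPM, log2 1.03 ± 0.23, adjusted p = 0.00103) and WNT9B (volar 2.33 ± 0.270, flank 1.30 ± 0.204 CPM, log2 0.85 ± 0.26, adjusted p = 0.00993) were higher in volar than in flank. WNT10B passed in the first set (0.98 ± 0.32, adjusted p = 0.0361) and WNT9B did not (0.86 ± 0.39, adjusted p = 0.111), nor did WNT9B pass in the second set alone (adjusted p = 0.102). WNT11, a ligand of cell movement and polarity, was 14.0 ± 9.06 CPM in volar and 3.42 ± 0.672 in snout (log2 1.87 ± 0.34, adjusted p = 0.00039), but the 3 first-set volar values (11.0, 6.28 and 6.73 CPM) were below the 2 second-set values (18.6 and 27.6 CPM, from libraries labelled flank). WNT11 did not pass in the first set (1.17 ± 0.36, adjusted p = 0.0593). WNT2 (volar 0.375 ± 0.459, snout 3.08 ± 1.41 CPM) and WNT2B (volar 2.09 ± 0.825, snout 4.80 ± 1.07 CPM) were lower in volar than in snout (log2 -2.98 ± 0.73 and -1.2 ± 0.26, adjusted p = 0.00379 and 0.00128). Both of these calls were lost without the muscle-bearing snout libraries (adjusted p = 0.103 and 0.052), and neither was made in the first set (adjusted p = 0.0903 and 0.0913). WNT3A, WNT6 and WNT9A passed in no comparison of that fit, and the WNT9A site means ran only from 18.5 to 20.9 CPM. The single-library values of WNT11 were chosen for printing after they were seen.

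Among ligand genes that lie next to each other, no pair was called in 1 shared direction between volar and flank. In the RefSeq gene order of Sscrofa11.1, used here for order only, WNT3 lies next to WNT9B, WNT6 next to WNT10A, WNT9A next to WNT3A and WNT10B next to WNT1, with 0 coding genes between. From flank to volar WNT3 was lower (log2 -1.62) and WNT9B higher (0.85). WNT10A was higher (1.5) and WNT6 did not pass (-0.14 ± 0.29, adjusted p = 0.707). WNT10B was higher (1.03), and its neighbour WNT1 had no count. Neither WNT9A nor WNT3A passed in the 20-library fit. Between WNT16 and WNT2 lie 9 coding genes, and both were lower in volar than in flank, WNT2 by -2.32 ± 0.71 (adjusted p = 0.0102, lost in 2 settings, up to 0.0848 without the 2 adipocyte-rich flank libraries and 0.052 without the flank library of the pig aged 8 months, and 0.0622 in the first set).

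**Figure D3:**
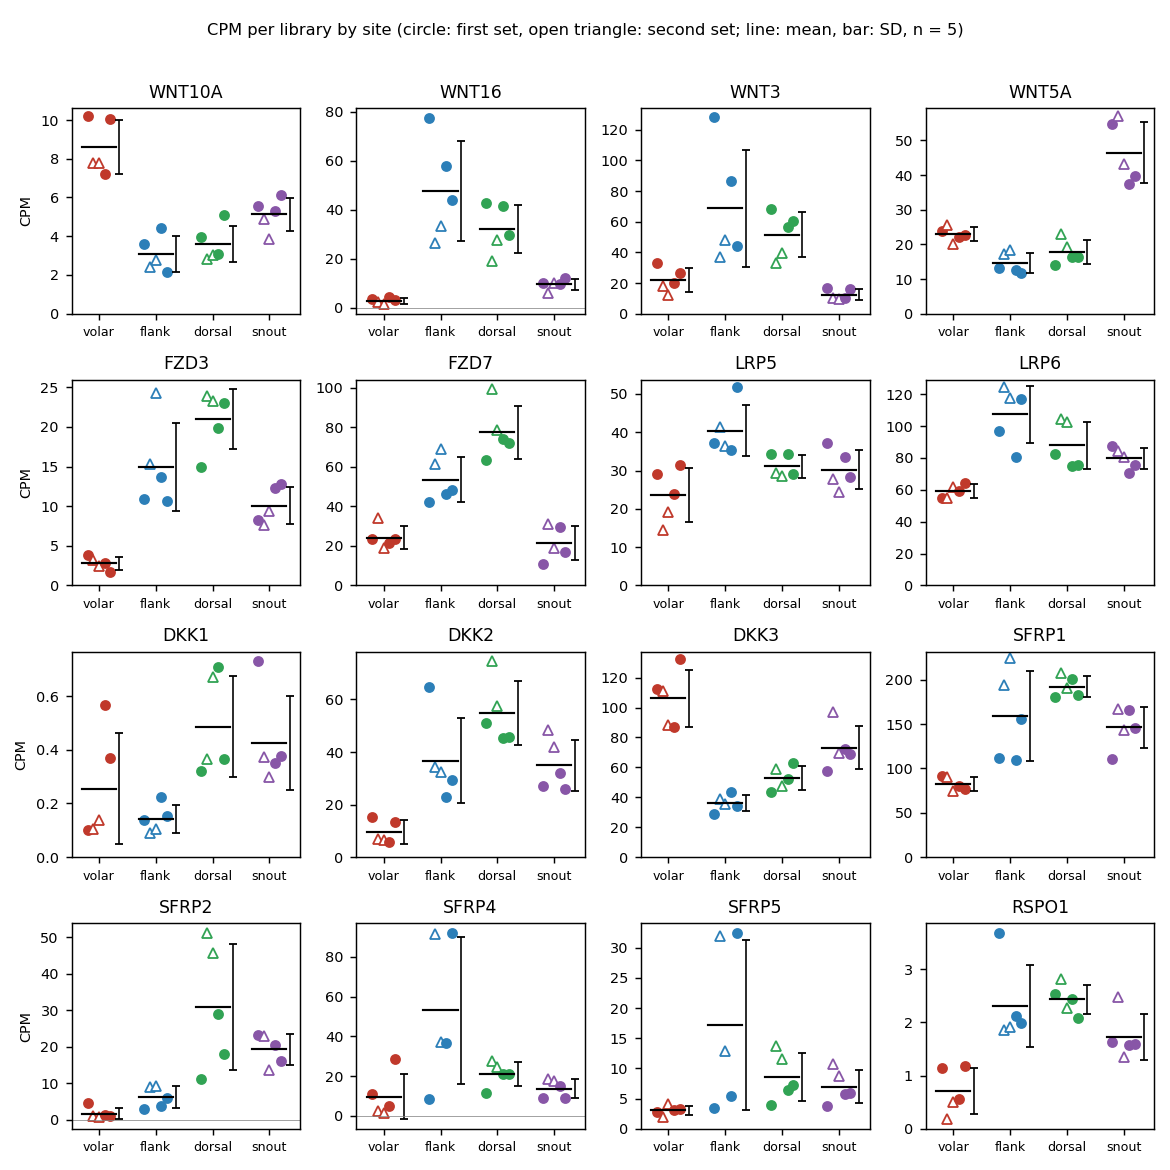
TMM-scaled CPM of the 16 members described by library, by matched site, with 1 point per pig, filled or open by library set, and bars for the mean and SD over 5 pigs. Volar points of WNT16, FZD3 and DKK2 lie below all points of the other 3 sites, and volar points of WNT10A lie above them.

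FZD3, a receptor best known from planar polarity, had the largest difference among receptors. Volar libraries measured 3.77, 2.83, 1.63, 3.21 and 2.43 CPM and dorsal foot libraries 14.9, 19.9, 23.0, 23.9 and 23.3. In flank it measured 10.9, 13.7, 10.6, 15.4 and 24.3 CPM and in snout 8.22, 12.3, 12.8, 7.60 and 9.44. The 5 volar values lay below all 15 others. The volar difference was -2.91 ± 0.26 against dorsal foot (log2, adjusted p = 1.1e-07), -2.40 ± 0.25 against flank (adjusted p = 5.53e-07) and -1.87 ± 0.25 against snout (adjusted p = 2.16e-05). Volar minus dorsal was -2.82 ± 0.31 in the first set and -3.05 ± 0.29 in the second (adjusted p = 0.000197 and 0.000388).

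FZD7, a receptor of stem and progenitor cells in several epithelia, was higher at both haired sites than in sole and snout. Dorsal foot libraries measured 63.5, 74.0, 72.0, 99.4 and 78.6 CPM and flank libraries 42.3, 46.1, 48.3, 61.2 and 69.0. Snout libraries measured 10.9, 29.3, 16.7, 31.2 and 19.0 CPM and volar libraries 23.3, 21.3, 23.6, 33.8 and 18.7. All 10 haired-site values exceeded the 10 others, while snout and volar overlapped (log2 0.19 ± 0.21, adjusted p = 0.499). Snout minus dorsal was -1.86 ± 0.21 (adjusted p = 7.69e-06) and volar minus dorsal -1.67 ± 0.21 (adjusted p = 5.38e-06). These were -1.88 ± 0.28 and -1.62 ± 0.28 in the first set (adjusted p = 0.00268 and 0.00198).

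Both co-receptors were lower in the sole than in flank, and the differences were small. LRP6 measured 55.0, 59.3, 64.5, 54.6 and 61.8 CPM in volar and 96.7, 80.7, 117, 124 and 118 in flank. It measured 82.3, 74.8, 75.5, 104 and 102 CPM in dorsal foot and 87.6, 70.8, 75.3, 84.4 and 80.4 in snout. LRP6 was lowest in volar skin at every pig, with no overlap with another site, and volar minus flank was -0.85 ± 0.11 (log2, adjusted p = 3.76e-06). LRP5 measured 29.2, 23.8, 31.5, 14.5 and 19.2 CPM in volar and 37.3, 35.4, 51.8, 41.3 and 36.5 in flank. The LRP5 values were 34.3, 34.3, 29.1, 29.3 and 28.5 CPM in dorsal foot and 37.2, 33.5, 28.3, 27.8 and 24.4 in snout. Volar and flank did not overlap for LRP5 (log2 -0.81 ± 0.14, adjusted p = 0.000139). Volar minus flank in the first set was -0.72 ± 0.14 for LRP6 (adjusted p = 0.0034) and -0.56 ± 0.17 for LRP5 (adjusted p = 0.0304).

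FZD9 was the 1 receptor called higher in the sole than in flank and dorsal foot, at low levels (0.83 ± 0.375 CPM in volar and 0.186 ± 0.0626 in dorsal foot, log2 2.10 ± 0.31, adjusted p = 2.5e-05). It was also higher in snout than in dorsal foot (log2 1.59, adjusted p = 0.000977), and volar against snout did not pass for FZD9. FZD2 was lower in volar (1.57 ± 0.560 CPM) than in flank (3.44 ± 1.19 CPM, log2 -1.08 ± 0.26, adjusted p = 0.00215), and FZD1 lower than in dorsal foot (26.7 ± 12.8 against 63.5 ± 2.18 CPM, log2 -1.28 ± 0.24, adjusted p = 0.000232). Within the first set FZD9 (1.94 ± 0.47, adjusted p = 0.013) and FZD1 (-0.82 ± 0.18, adjusted p = 0.00719) passed and FZD2 did not (-0.67 ± 0.36, adjusted p = 0.173). FZD10 had its highest mean in snout (40.6 ± 14.9 CPM, beside 22.2 to 23.7 elsewhere), but all 3 of its calls were lost without the muscle-bearing libraries (adjusted p up to 0.13). FZD5 and FZD6 passed in no comparison of the 20-library fit. FZD8, chosen for printing after its values were seen, was listed at 0 in 3 volar libraries and at 1.92 and 1.15 CPM in the volar libraries of the pigs aged 8 and 6 months. At the other 15 libraries FZD8 ran from 1.70 to 5.39 CPM. Its volar minus dorsal difference (-2.48 ± 0.86, adjusted p = 0.0232) was lost in 3 settings with a pig or library left out, with the highest adjusted p (0.0928) without the pig aged 5 months, and was not called in the first set (adjusted p = 0.236).

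The Dickkopf genes did not share a direction. DKK1 was low everywhere, with 3 to 54 counts per library. In volar it measured 0.101, 0.566, 0.369, 0.105 and 0.138 CPM and in flank 0.139, 0.225, 0.154, 0.0881 and 0.104. In dorsal foot it measured 0.321, 0.71, 0.364, 0.366 and 0.670 CPM and in snout 0.732, 0.349, 0.377, 0.372 and 0.298. Volar values overlapped with both the flank and the dorsal foot values, and the sole was not the site with the highest DKK1 mean. Volar minus flank was 0.82 ± 0.45 (log2, adjusted p = 0.134) and volar minus dorsal -1.0 ± 0.43 (adjusted p = 0.0649) and neither passed, although volar minus dorsal passed in the second set alone (-2.07 ± 0.61, adjusted p = 0.0315) and under upper-quartile scaling. Every dorsal foot and every snout library exceeded every flank library. Snout minus flank was 1.58 ± 0.44 (adjusted p = 0.0113), lost without the pig aged 5 months (0.0618), without the muscle-bearing libraries (0.0681), without the 2 adipocyte-rich flank libraries (0.0724) and in the first set alone (adjusted p = 0.141). Dorsal minus flank was 1.82 ± 0.44 (adjusted p = 0.0461) and was lost in 24 of the matched-site settings, 20 of them with 1 library or pig left out (up to 0.218). DKK1 was not tested in all 36 settings.

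DKK2, an LRP5 and LRP6 ligand known from hairless plantar skin of other mammals, was lower in the sole than anywhere else. Volar libraries held 15.4, 5.87, 13.4, 6.78 and 6.60 CPM and dorsal foot libraries 51.0, 45.2, 45.6, 74.7 and 57.7. Flank libraries held 64.7, 22.8, 29.4, 34.3 and 32.2 CPM and snout libraries 26.9, 32.1, 26.0, 48.2 and 42.0. No volar value reached the lowest value at another site. Volar minus dorsal was -2.49 ± 0.32 (log2, adjusted p = 6.97e-06), volar minus flank -1.92 ± 0.32 (adjusted p = 6.38e-05) and volar minus snout -1.84 ± 0.32 (adjusted p = 0.000234). The first of these was -2.03 ± 0.40 in the first set and -3.30 ± 0.18 in the second (adjusted p = 0.00474 and 8.37e-05). The first-set adjusted p against snout was 0.0594. Comparisons among flank, dorsal foot and snout did not pass for DKK2 (adjusted p from 0.142 to 0.877).

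DKK3, a divergent family member that does not act as a typical LRP antagonist, went the other way. In volar skin it measured 112, 86.9, 132, 111 and 88.2 CPM and in snout 57.7, 72.6, 69.1, 97.2 and 69.6. In dorsal foot it measured 43.2, 52.5, 63.0, 59.0 and 47.7 CPM and in flank 28.6, 43.2, 34, 38.8 and 35.3. All volar values exceeded all flank and dorsal values, and the volar and snout ranges overlapped. The volar minus flank difference was 1.56 ± 0.16 (log2, adjusted p = 2.88e-07), with 1.65 ± 0.21 and 1.42 ± 0.21 in the first and second sets (adjusted p = 0.000261 and 0.0018). DKK4 had 0 to 66 counts per library and a snout mean of 0.436 ± 0.376 CPM, and its snout minus flank call (2.85 ± 0.88, adjusted p = 0.0213) was lost without the snout library of the pig aged 4 months (adjusted p = 0.0617) and in the first set (adjusted p = 0.0757).

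SFRP2, a secreted Frizzled-related protein of dermal fibroblasts, had the largest site difference among the inhibitors. Volar libraries measured 4.61, 1.21, 1.09, 1.08 and 0.642 CPM and dorsal foot libraries 11.1, 29.1, 18.0, 51.3 and 45.6. Snout libraries measured 23.2, 20.4, 16.1, 23.1 and 13.7 CPM and flank libraries 3.06, 3.82, 6.03, 9.12 and 9.27. All volar values were below all dorsal and snout values, whereas the volar library of the pig aged 4 months was above 2 flank libraries. Volar minus dorsal was -3.99 ± 0.53 (log2, adjusted p = 9.11e-06), and -4.81 without that volar library. Volar minus dorsal was -3.08 ± 0.57 in the first set and -5.78 ± 0.36 in the second (adjusted p = 0.00312 and 0.000133). Volar minus flank (-1.70 ± 0.50, adjusted p = 0.00783) was lost without the pig aged 5 months (0.0564), and snout minus flank (1.70 ± 0.47, adjusted p = 0.0117) without the pig aged 7 months (0.0788). Dorsal minus flank (2.29 ± 0.48, adjusted p = 0.0203) was lost in 9 of the 36 settings, with the highest adjusted p (0.17) without the pig aged 7 months.

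SFRP1 was also lowest in volar skin, with a narrow spread. It measured 91.9, 80.6, 76.2, 90.1 and 74.0 CPM in volar and 180.2, 201, 182, 207 and 191 in dorsal foot. In flank the values were 111, 109.5, 156, 194 and 224 CPM and in snout 110.5, 166, 145, 167 and 144. No volar value overlapped with another site, and volar minus dorsal was -1.22 ± 0.15 (log2, adjusted p = 4.68e-06), or -1.18 ± 0.18 in the first set (adjusted p = 0.000983). Volar minus flank (-0.92 ± 0.15, adjusted p = 6.89e-05) and volar minus snout (-0.82 ± 0.15, adjusted p = 0.000407) passed as well, also in the first set (adjusted p = 0.0231 and 0.019).

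SFRP4 and SFRP5 had their highest values in 2 flank libraries. SFRP4 measured 8.5, 36.4, 92.2, 91.4 and 37.2 CPM in flank and 10.9, 4.71, 28.7, 2.13 and 1.15 in volar. It measured 11.5, 21.1, 20.9, 27.3 and 24.4 CPM in dorsal foot and 8.75, 15, 8.76, 18.4 and 17.5 in snout. SFRP5, known from adipose tissue, measured 3.43, 5.47, 32.5, 31.9 and 13.0 CPM in flank and 2.76, 3.16, 3.22, 2.03 and 4.03 in volar. The SFRP5 values were 3.94, 6.36, 7.28, 13.7 and 11.5 CPM in dorsal foot and 3.77, 5.75, 5.98, 10.7 and 8.71 in snout. Both genes were highest in the flank libraries of the pigs aged 8 and 5 months (the second labelled dorsal), where the 7 adipocyte markers found summed to 3336 and 2005 CPM, beside 276, 426 and 859.6 in the other flank libraries and 37.9 to 148 in volar. Volar minus flank was -2.47 ± 0.73 for SFRP4 (log2, adjusted p = 0.00795) and -2.42 ± 0.48 for SFRP5 (adjusted p = 0.000373). Without those 2 libraries, an alternative added after seeing the data, SFRP4 was -1.54 (adjusted p = 0.107) and SFRP5 -1.11 (adjusted p = 0.00837). SFRP4 was also lost without the pig aged 5 months (-1.96, adjusted p = 0.0541) and in the first set (-1.63 ± 0.78, adjusted p = 0.136), and it was -3.44 without the volar library of the pig aged 8 months. SFRP5 was -1.68 without the flank library of that pig, and -2.18 ± 0.69 in the first set (adjusted p = 0.0327). In the flank libraries of the pigs aged 8 and 5 months the 6 sebaceous markers found summed to 3357 and 1338 CPM. The other flank libraries held 222.4, 307.5 and 694.3 CPM of them. Fibroblast and smooth muscle marker sums were also highest in those 2 among the flank libraries. The part of adipose tissue, or of any of these cell types, in the differences was not tested.

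FRZB, a Frizzled-related protein known from cartilage and connective tissue, and WIF1 passed in no comparison of the 20-library fit, and their single-library values were chosen for printing after they were seen. In snout FRZB measured 6.82, 49.7, 5.62, 45.5 and 43.8 CPM and in volar 43.5, 6.10, 23.7, 2.59 and 2.25. The 3 high snout values came from the libraries of the pigs aged 7, 5 and 6 months, in which the 9 skeletal muscle markers found summed to 8376, 3835 and 6535 CPM, beside 13.4 and 8.36 in the other snout libraries. That muscle RNA moved with FRZB in the snout, and its part was not tested. Among volar libraries FRZB was high in those of the 4-month and 8-month pigs, where muscle marker sums were within the volar range of 5.22 to 17.5 CPM. Volar minus flank was 1.25 ± 0.92 in the first set (adjusted p = 0.324) and -2.34 ± 0.36 in the second (adjusted p = 0.00201), and the site by set interaction of FRZB did not pass (adjusted p = 0.339). WIF1 ranged from 2.02 CPM in the flank library of the pig aged 5 months (labelled dorsal) to 98.2 in the snout library of the same pig (labelled volar). In the first set WIF1 passed for volar minus dorsal (-1.22 ± 0.28, adjusted p = 0.009) and volar minus snout (-1.26 ± 0.28, adjusted p = 0.0149), calls that the 20-library fit did not make (adjusted p = 0.238 and 0.168).

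**Figure D4:**
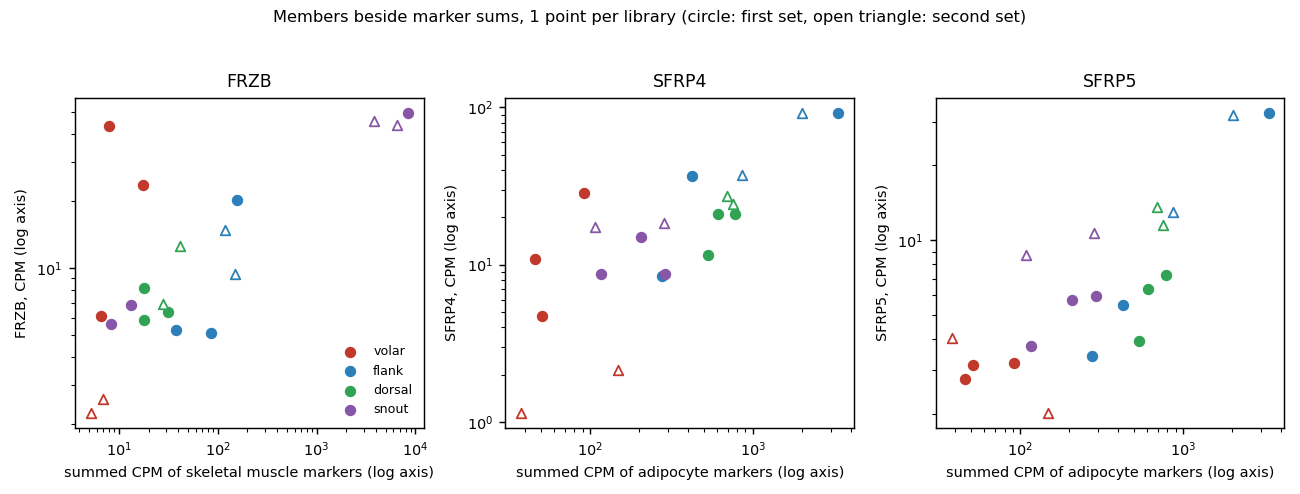
FRZB against the summed skeletal muscle markers, and SFRP4 and SFRP5 against the summed adipocyte markers, 1 point per library (TMM-scaled CPM, both axes on log scales), coloured by matched site. The 3 snout libraries with 3835 to 8376 CPM of muscle markers hold 43.8 to 49.7 CPM of FRZB, and the 2 flank libraries with most adipocyte RNA hold the highest SFRP4 and SFRP5.

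RSPO1, a secreted enhancer of WNT signalling, was lower in the sole than at every other site, at low levels. Volar libraries measured 1.14, 0.566, 1.18, 0.175 and 0.504 CPM and dorsal foot libraries 2.53, 2.43, 2.08, 2.82 and 2.28. Flank libraries measured 3.68, 2.12, 1.99, 1.85 and 1.91 CPM and snout libraries 1.62, 1.56, 1.59, 2.47 and 1.36. All volar values were below all others. Volar minus dorsal was -1.80 ± 0.35 (log2, adjusted p = 0.0004), and -1.28 ± 0.34 in the first set (adjusted p = 0.0193). Volar minus snout (-1.31 ± 0.35, adjusted p = 0.00649) was lost without the muscle-bearing libraries (adjusted p = 0.126). RSPO4, known for its role in nail formation, was 0.980 ± 0.371 CPM in snout and 0.284 ± 0.0949 in volar (log2 -1.72 ± 0.46, adjusted p = 0.00694, lost without the same libraries at 0.0775 and in the first set at 0.14). RSPO3 passed in no comparison of the 20-library fit, with site means from 1.39 to 2.53 CPM.

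The other genes of the pathway were taken from 5 lists. Of 19 receptor-level regulators, 4 were higher in volar than in flank and 10 lower, with 2 higher and 11 lower against dorsal foot, and 2 higher and 10 lower against snout. Among all genes the shares higher and lower were 25.8% and 29.1%, 24.7% and 24.2%, and 19% and 20.7% in these comparisons. In the first set these counts were 3 and 8, 1 and 9, and 0 and 3, beside 16.9% and 16%, 14% and 10.1%, and 5.71% and 5.85% of all genes. LGR5, the R-spondin receptor of hair follicle stem cells, had 0 counts in all 5 volar libraries. It measured 20.5, 26.4, 19.0, 47.5 and 31.9 CPM in dorsal foot, 9.84, 12.7, 9.83, 10.6 and 14.5 in flank and 1.54, 2.37, 4.47, 3.67 and 3.63 in snout. With 3 counts over the volar group as the floor, LGR5 was at least 1750-fold lower than in dorsal foot, 691-fold lower than in flank and 189-fold lower than in snout. KREMEN2, a DKK receptor, was 5.87 ± 1.55 CPM in flank and 5.97 ± 1.30 in dorsal foot, and 2.11 ± 0.284 in volar and 1.78 ± 0.254 in snout (volar minus flank, log2 -1.48 ± 0.21, adjusted p = 1.14e-05, or 0.00511 in the first set). SOST, an LRP5 and LRP6 antagonist, was 2.47 ± 1.2 CPM in flank, 1.65 ± 0.892 in dorsal foot and 0.0851 ± 0.0273 in snout, with 3 volar libraries at 0 (snout minus flank, log2 -4.78 ± 0.68, adjusted p = 5.7e-05, or 0.00301 in the first set).

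Genes known as targets of the beta-catenin route had calls in both directions. Of 15 tested, 2 were higher in volar than in flank and 8 lower, 0 and 8 against dorsal foot, 1 and 4 against snout, and 2 and 8 in snout against flank. The shares of all genes are those just given for the volar comparisons, and 15.7% higher and 13.2% lower for snout against flank. The first set gave 2 and 6, 0 and 6, 1 and 2, and 1 and 4. Its shares of all genes are those given for the regulators, and 13.2% in either direction for snout against flank. AXIN2, a feedback gene often used as a readout of the route, measured 13.8, 21.9, 18.4, 12.2 and 16.3 CPM in volar and 24.0, 30.7, 18.7, 18.7 and 23.2 in flank. In dorsal foot it measured 15.4, 18.3, 18.9, 15.1 and 18.1 CPM and in snout 15.4, 14.9, 11.5, 19.4 and 13.4. AXIN2 values overlapped between volar and every other site, and volar minus flank was -0.48 ± 0.17 (log2, adjusted p = 0.024), with -0.44 ± 0.22 in the first set (adjusted p = 0.149). SP5, another feedback target, was 4.28 ± 1.5 CPM in flank, 1.54 ± 0.457 in dorsal foot, 0.307 ± 0.156 in volar and 0.243 ± 0.183 in snout (snout minus flank, log2 -4.11 ± 0.45, adjusted p = 3.57e-06, or 0.00285 in the first set). LEF1, a transcription factor of the route that marks the hair matrix, was 29.0 ± 10.2 CPM in dorsal foot, 21.2 ± 16.0 in flank, 7.27 ± 2.05 in snout and 6.11 ± 1.52 in volar (volar minus dorsal, log2 -2.22 ± 0.42, adjusted p = 0.000341, or 0.0192 in the first set). The site means of LGR5 and LEF1 had the same order as the site medians of the summed hair shaft and inner root sheath markers. Among flank libraries that sum ran from 483.2 to 17240 CPM, LGR5 from 9.83 to 14.5 and LEF1 from 6.46 to 46.6. The part of follicle content was not tested.

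The lists of ligand secretion, intracellular and planar polarity genes stand beside 25.8% higher and 29.1% lower among all genes for volar minus flank. These shares were 24.7% and 24.2% for volar minus dorsal. For volar minus snout they were 19% and 20.7% (5.71% and 5.85% in the first set). Of the 18 intracellular genes tested, 9 were higher in volar than in flank and 6 lower (5 and 3 in the first set). Against dorsal foot 7 were higher and 5 lower, and against snout 8 and 3 (2 and 1 in the first set). Among those higher than in flank was CSNK1A1, the kinase that primes beta-catenin for breakdown, at 1057 ± 147 CPM in volar and 459.8 ± 54.1 in flank (log2 1.2 ± 0.10, adjusted p = 6.12e-08). GSK3A and DVL1 were higher in volar than in flank by 0.73 ± 0.10 and 0.69 ± 0.12 (log2, adjusted p = 1.5e-05 and 0.000118). Of 6 secretion genes 1, VPS35, passed for volar against flank, where 55% of all genes passed (log2 0.48 ± 0.07, adjusted p = 2.19e-05). PORCN, the enzyme that attaches the lipid to WNT ligands, was lower in volar than in snout by -0.48 ± 0.11 (adjusted p = 0.00226). SEL1L was higher in volar than in dorsal foot and snout (log2 0.25 and 0.20, adjusted p = 0.0116 and 0.0437). Of 12 planar polarity genes, 4 were higher in volar than in flank and 2 lower (also 4 and 2 in the first set). Against dorsal foot 3 were higher and 3 lower, and against snout 6 and 2 (5 and 0 in the first set). DAAM1, a formin of this route, was 528 ± 243 CPM in volar and 192 ± 15.6 in flank (log2 1.39 ± 0.20, adjusted p = 1.55e-05), while SCRIB and CELSR2 were higher by 1.25 ± 0.18 and 1.02 ± 0.15 (adjusted p = 1.44e-05 and 2.2e-05). The volar minus flank adjusted p in the first set was 0.000336 for CSNK1A1, 0.00399 for GSK3A, 0.0348 for DVL1, 0.00869 for VPS35, 0.00562 for DAAM1, 0.00169 for SCRIB and 0.000168 for CELSR2. PORCN passed there against snout (adjusted p = 0.0274), and SEL1L passed against neither site (adjusted p = 0.233 and 0.478).

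**Figure D5:**
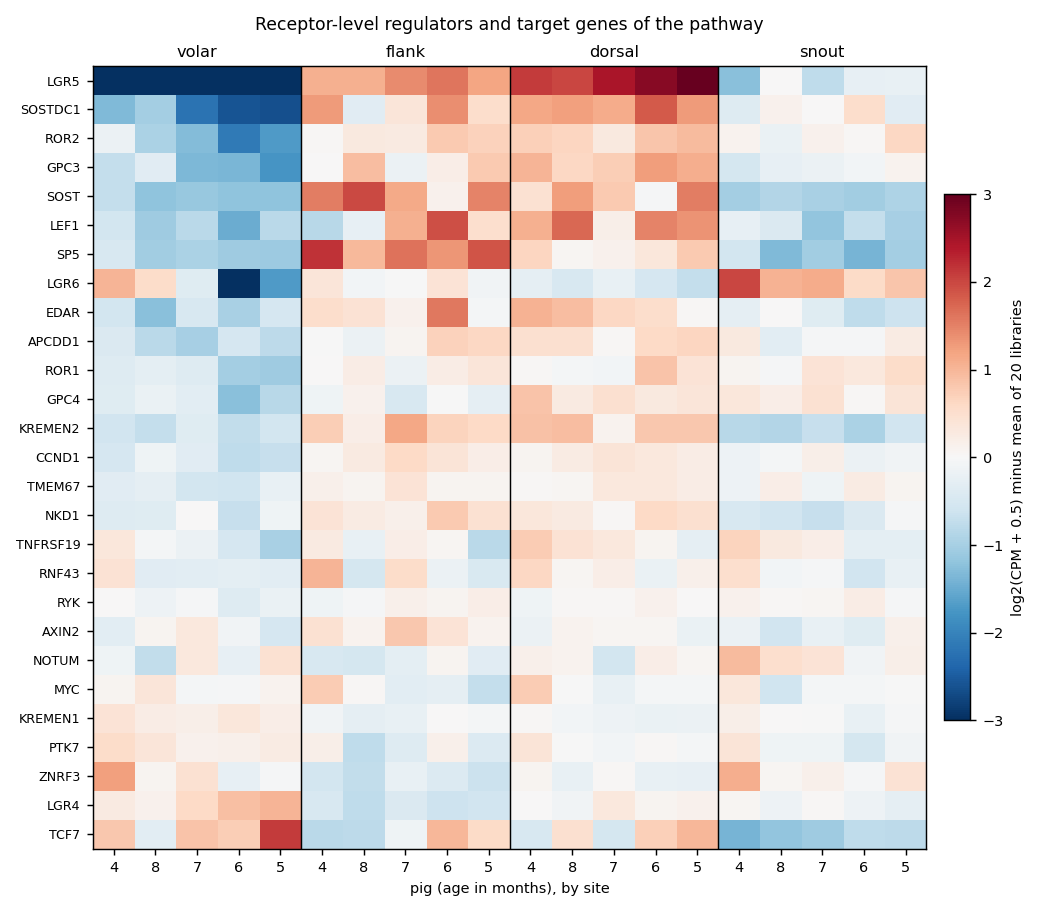
Level of the receptor-level regulators and of the target genes (rows) in the 20 libraries (columns, by matched site), as log2(CPM + 0.5) minus the gene's mean over all libraries, with colours capped at 3 on both sides. LGR5 is at its low end in all 5 volar columns, and AXIN2 shows no such band.

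Site differences were also set against each other between the library sets. The second-set sites had been given by expression match to the first set, so agreement between the sets was in part built in. A lack of interaction calls therefore cannot check that reading. The test for a site by set interaction (edgeR's quasi-likelihood test) called 0 of 40 members, with 9 at an unadjusted p under 0.05 and the lowest adjusted p at 0.0613 (FZD1), beside 0.0655% of all genes called. DESeq2 called 3 members. All the calls that were made in both the 20-library fit and the first set had the same sign in both, 16 of 16 for volar minus flank, 13 of 13 for volar minus dorsal, 6 of 6 for volar minus snout, 8 of 8 for snout minus flank and 5 of 5 for snout minus dorsal. The first set is part of the 20-library fit, so these counts are not independent of it. Members whose 5 libraries at the sole lay wholly apart from the 5 at flank numbered 5 higher and 10 lower, beside 15.4% and 15.9% of all genes. Against dorsal foot they numbered 5 and 12 (16.9% and 16.1% of all genes), and against snout 2 and 11 (10.2% and 10.7%).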

How the data were processed

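RNA from skin punches of 5 pigs at 4 sites was sequenced in 20 libraries, per the labels. The authors deposited estimated counts for each Ensembl gene, from Salmon per the submitters' processing notes. The Salmon version, build and annotation were not given in the sources used here. Counts were rounded before testing, since 42.2% were not whole. Symbols came from the supplied gene name tables, which matched 14821 of 19280 identifiers, and RefSeq of Sscrofa11.1 gave gene order only. Totals of 34077821 to 66906420 counts made 1 count worth at most 0.0458 CPM.

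Sites were as labelled in the first set (12 libraries) and by expression match in the second (8 libraries). Each comparison used the robust quasi-likelihood F test of edgeR 4.0.16 (R 4.3.3, limma 3.58.1), TMM scaling, a filterByExpr minimum of 10 counts (15 in total), terms for site and library set, and Benjamini-Hochberg adjustment over all 15275 genes tested, called at an adjusted p under 0.05. SE is the log2 difference divided by the square root of F. Replicates are separate pigs, per the labels. The 4 sites share pigs, so same-pig libraries are paired. The median r of their deviations from the mean of the site was 0.215 for the first set (-0.006 to 0.434) and 0.311 for the second (0.116 to 0.439), and the pig as a block is an alternative. So are DESeq2 1.42.0, other scalings and filters, the first set alone, the labels as deposited, and leaving out libraries or pigs. Leaving out the 2 adipocyte-rich flank libraries, and the block within the first set, were chosen after seeing the data. The code was tested on simulated counts.

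The members, gene lists and tests were chosen with earlier results of these data known. Library values are given for DKK1 and, per role, for up to 4 members with the smallest adjusted p for any site, an adjusted p under 0.05 and at least 1 CPM in the highest site. Of the other pathway genes the 3 with the smallest such p per list are named, plus LGR5, AXIN2 and LEF1.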

Additional observations from a re-analysis of the deposited data

Results flagged for a closer look

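In each of the 16 members described by library, the highest and lowest library of each site was compared with its nearest neighbour. Of these 64 groups of 5 libraries, 5 held a value whose gap to the nearest other exceeded 0.71 of the whole range. Chance flags about 1 group in 20. DKK1 in snout was 0.732 CPM in the pig aged 4 months and 0.298 to 0.377 in the others. DKK2 in flank was 64.7 CPM in the pig aged 4 months and 22.8 to 34.3 in the others. RSPO1 in flank was 3.68 CPM in the same pig and 1.85 to 2.12 in the others. SFRP2 in volar was 4.61 CPM in the same pig and 0.642 to 1.21 in the others. RSPO1 in snout was 2.47 CPM in the library of the pig aged 5 months that is labelled volar, and 1.36 to 1.62 in the others. These 5 values come from 4 libraries, of which 3 are of the pig aged 4 months.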

How the results depend on the processing

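The counts in this paragraph are of members only, without shares of all genes beside them. With the labels as deposited, 0 members were called for any site and in each comparison (lowest adjusted p 0.0867), and 24 for the site by set interaction. The first set alone called 17 members for any site, 16 for volar minus flank, 14 for volar minus dorsal, 7 for volar minus snout, 8 for snout minus flank, 5 for snout minus dorsal and 0 for dorsal minus flank. With the pig as a replicate block in the first set the counts that moved by over 1.5 times were 17 for any site, 17, 8, 8, 5 and 0, for all but volar minus dorsal in that order. With the pig as replicate block over all 20 libraries 31, 26, 25, 21, 16, 10 and 3 members were called, in the order any site, volar minus flank, dorsal and snout, snout minus flank and dorsal, and dorsal minus flank, and the block changed no call but those given in the report. Keeping only calls with an estimated log2 difference of at least 1 in either direction left 17 for volar minus flank, 13 for volar minus snout and 7 for snout minus dorsal. The test itself was still against 0. Without the 3 libraries with skeletal muscle RNA there were 11 for volar minus snout, 6 for snout minus flank, 5 for snout minus dorsal and 1 for dorsal minus flank. Only first-set snout libraries were then left, so a lower count can also come from fewer libraries, and the interaction could not be fitted. Without the 2 adipocyte-rich flank libraries there were 10 for snout minus flank and 0 for dorsal minus flank. Dorsal minus flank gave 6 with DESeq2, 1 each with a filter of 1 CPM in 5 libraries, with no filter and with no set term, and 0 in the second set. DESeq2 called 3 members in the interaction. With each library or pig left out, counts ran from 24 to 33 for any site, 21 to 29 for volar minus flank, 19 to 25 for volar minus dorsal, 16 to 23 for volar minus snout, 11 to 17 for snout minus flank, 7 to 11 for snout minus dorsal, 0 to 3 for dorsal minus flank and 0 to 2 for the interaction. The other 256 counts stayed within 1.5 times. Of the leading comparison of each of the 16 members described by library, 613 values stayed on their side of the threshold, 26 lost the call (16 with the labels as deposited) and 0 changed sign. Where a cause is not named here, it was not tested.

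Upper-quartile scaling moved the median of all genes by -0.108 for volar minus flank and -0.123 for volar minus dorsal (log2). The share of higher genes among those called went from 47% to 38.7% and from 50.5% to 38.7%, and for snout minus dorsal from 60.5% to 48.4%. It changed the sign of 0 member calls, and lost WNT5A for volar minus dorsal and DKK3 and WNT10A for snout minus dorsal. Depth limits DKK1, DKK4, FZD9 and RSPO4 most, since they had at most 110 counts in a library.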
